A study of Mus musculus with 6 samples.

Results

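Genes that mark fat cells were followed through the gastrocnemius (GAS) muscles of wildtype in WT and Kvβ2 knockout (KO) mice, to ask which kind of fat RNA each muscle library carried. They were found by their gene symbols, and each of the 10 symbols matched an entry among the 37979 entries of the FPKM table. The 7 genes that mark white fat, or adipocytes in general, were *Adipoq*, *Lep*, *Retn*, *Cfd*, *Plin1*, *Cidec* and *Fabp4*. The 3 genes that mark brown fat were *Ucp1*, *Cidea* and *Elovl3*.

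White adipocytes store triglyceride in a single large lipid droplet and secrete hormones, the adipokines, into the blood. Brown adipocytes hold many small droplets and many mitochondria, and burn fatty acids to make heat through the uncoupling protein UCP1. Skeletal muscle holds adipocytes between its fibers and fascicles, and white or brown fat can lie against a dissected muscle. Both adipocyte types depend on the transcription factors PPARγ and C/EBPα, so that several fat genes are shared between them.

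The libraries came from male mice 20 weeks of age that had received no treatment, with 3 WT and 3 KO mice and 1 library per mouse. WT and KO animals were bred from parents hemizygous for a null allele of *Kcnab2*, the gene of the potassium channel subunit Kvβ2, and the KO mice carried 2 null copies. The null allele was not limited to muscle, so fat of the KO mice lacked the gene too. The libraries carried the numbers 1, 7 and 8 in each genotype. Values are FPKM, fragment numbers scaled to the length of the transcript and to all mapped fragments of the library, which allow levels of different genes to be compared. No counts were used, but low values fell on steps of whole fragments, from which a depth of 20600000 to 21540000 fragments was estimated for the WT and 15000000 to 19600000 for the KO libraries. *Kcnab2* itself was at 0.10001 to 0.233 FPKM in the WT libraries, at 0.0151 FPKM in KO replicate 7, and listed at 0, which is not taken here as absence, in KO replicates 1 and 8. The labelled tissue was seen in each library, with the muscle creatine kinase gene *Ckm* at 2675 to 7971 FPKM. KO replicate 7 and WT replicate 7 stood apart from the rest: 86 and 98 genes, of 12334 tested, were over 2 times as high there as in the next highest library, against 15 to 31 genes in each of the other 4 libraries. Results are therefore given with and without KO replicate 7.

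Promoter sequences were available in RefSeq (GRCm38.p6) for 7 of the 10 genes, and 3 are shown, those of an adipokine seen in every library, of the adipokine with the widest spread, and of the brown fat gene seen almost only in KO replicate 7. Each is the 250 bases before the annotated start site, on the strand of the gene. Capitals mark a C/EBP motif in the first 2 and a nuclear receptor core motif in the third.
Adipoq, plus strand, chr16:23146286-23146535: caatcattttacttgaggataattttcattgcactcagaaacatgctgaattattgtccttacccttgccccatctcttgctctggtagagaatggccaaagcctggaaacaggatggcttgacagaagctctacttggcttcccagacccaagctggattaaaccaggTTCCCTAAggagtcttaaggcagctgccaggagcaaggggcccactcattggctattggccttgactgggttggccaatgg
Lep, plus strand, chr6:29059971-29060220: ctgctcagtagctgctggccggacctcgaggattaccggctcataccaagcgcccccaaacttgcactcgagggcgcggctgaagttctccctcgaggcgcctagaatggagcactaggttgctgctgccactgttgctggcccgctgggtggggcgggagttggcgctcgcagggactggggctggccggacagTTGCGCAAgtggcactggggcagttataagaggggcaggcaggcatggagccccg
Ucp1, plus strand, chr8:83290098-83290347: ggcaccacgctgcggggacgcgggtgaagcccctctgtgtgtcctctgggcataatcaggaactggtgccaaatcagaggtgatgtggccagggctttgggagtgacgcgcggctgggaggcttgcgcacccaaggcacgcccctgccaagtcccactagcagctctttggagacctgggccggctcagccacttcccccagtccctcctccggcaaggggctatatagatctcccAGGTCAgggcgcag
The C/EBP motif TTNNGNAA, searched on both strands, was present in 4 of the 7 genes, *Adipoq*, *Lep*, *Plin1* and *Cidec*, and in 36.8% of all 32851 windows of this length. In *Lep* it starts 55 bases before the start site and reads alike on both strands. The core motif AGGTCA, also searched on both strands, was present in *Ucp1* alone of the 7, starting 14 bases before the start site, and in 14.0% of all windows. The TATA box TATAAA, searched on the strand of the gene, was present in 0 of the 7 and in 7.59% of all windows. The motifs share no bases in the printed windows.

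RNA of white fat genes was present in all 6 libraries, and that of brown fat genes stood clear of a few fragments in 1. KO replicate 7 held the highest level of 9 of the 10 genes, *Elovl3* being the exception. For 8 of the 10 it exceeded the next highest library over 2 times. Among all genes tested, those with a mean of at least 0.5 FPKM, KO replicate 7 was the highest library for 21.4% and exceeded the next over 2 times for 0.697%. *Ucp1* and *Cidea* reached that mean only through KO replicate 7, so their counts cannot be set against these shares. Of the 7 genes that reached it without that library, all white, KO replicate 7 was the highest for 7 and over 2 times the next for 6, *Fabp4* being the exception. WT replicate 7 had the lowest level of 5 of the 7 white fat genes. In these bulk samples, fewer fat cells and less RNA per fat cell cannot be told apart.

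**Figure D1:**
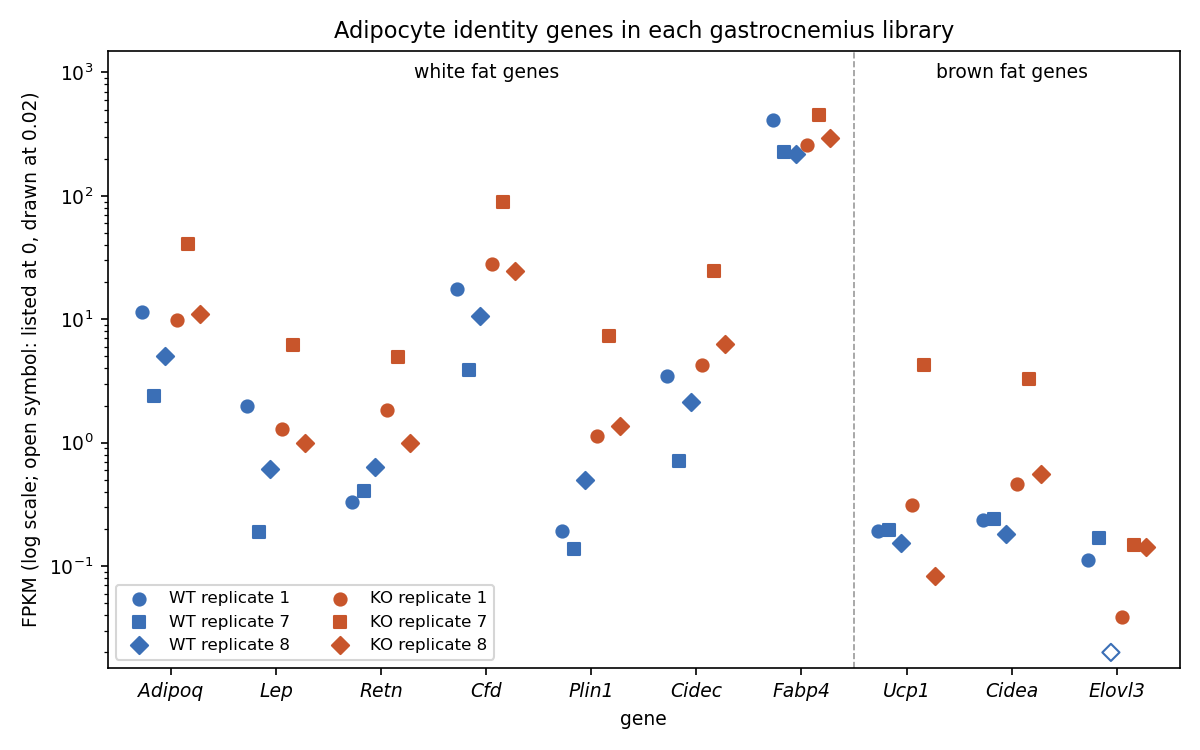
FPKM of the 10 adipocyte genes (log axis, with the value listed at 0 as an open symbol at the foot) in each WT and KO library. *Fabp4* sat between 217 and 450 FPKM in every library, while the others spread more widely, with KO replicate 7 uppermost for every gene but *Elovl3*.

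Among the white fat genes, *Fabp4*, *Cfd* and *Adipoq* had the highest levels, and 4 of the 7 encode adipokines. *Adipoq* (ENSMUSG00000022878, chromosome 16, 23146536 to 23158028, plus strand, GRCm38) encodes adiponectin, a hormone of mature adipocytes that promotes insulin sensitivity. In WT libraries 1, 7 and 8 *Adipoq* measured 11.4, 2.39 and 4.999 FPKM, against 9.86, 40.4 and 11.1 FPKM in KO libraries 1, 7 and 8. The genotypes overlapped, since WT replicate 1 lay above KO replicates 1 and 8. The mean was 6.26 ± 4.62 FPKM over the WT libraries and 20.5 ± 17.3 FPKM over the KO libraries (SD, n = 3 each), a difference within the spread of the KO libraries (exact permutation test, two-sided, p = 0.3).

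*Lep* (ENSMUSG00000059201, chromosome 6, 29060220 to 29073877, plus strand) encodes leptin, the satiety hormone, which rises with fat mass and is made mostly by white fat. WT libraries 1, 7 and 8 held 1.98, 0.188 and 0.612 FPKM of *Lep*, and KO libraries 1, 7 and 8 held 1.29, 6.23 and 0.999 FPKM. KO replicate 7 held 33.2 times the level of WT replicate 7, and the genotypes overlapped (exact permutation test, two-sided, p = 0.4). *Retn* (ENSMUSG00000012705, chromosome 8, 3655770 to 3660110, plus strand) encodes resistin, an adipokine made by white adipocytes in mice. In WT libraries 1, 7 and 8 *Retn* measured 0.333, 0.405 and 0.641 FPKM, against 1.85, 4.91 and 0.996 FPKM in KO libraries 1, 7 and 8. The 3 KO libraries were each above the highest WT library. The WT values rest on about 6 to 11 fragments each.

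*Cfd* (ENSMUSG00000061780, chromosome 10, 79890853 to 79892655, plus strand) encodes adipsin, the factor D protease of the alternative complement pathway, secreted by fat. WT libraries 1, 7 and 8 held 17.8, 3.92 and 10.6 FPKM of *Cfd*, and KO libraries 1, 7 and 8 held 27.9, 89.0 and 24.6 FPKM. The lowest KO library lay above the highest WT library. For *Retn* and for *Cfd* the exact permutation test, two-sided, gave p = 0.1, the smallest that 3 against 3 libraries allow.

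The genes of the lipid droplet also had their highest level in KO replicate 7 and their lowest in WT replicate 7. *Plin1* (ENSMUSG00000030546, chromosome 7, 79720218 to 79732903, minus strand) encodes perilipin 1, which coats the droplet of adipocytes and gates lipolysis. In WT libraries 1, 7 and 8 *Plin1* measured 0.192, 0.138 and 0.4995 FPKM, against 1.14, 7.37 and 1.37 FPKM in KO libraries 1, 7 and 8. The genotypes did not overlap, and KO replicate 7 was 5.36 times the next highest library. The WT values correspond to about 4 to 14 fragments and the KO values to about 22 to 183.

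*Cidec* (ENSMUSG00000030278, chromosome 6, 113424634 to 113435760, minus strand) encodes a protein that fuses droplets into the single large one of white adipocytes. WT libraries 1, 7 and 8 held 3.49, 0.714 and 2.12 FPKM of *Cidec*, and KO libraries 1, 7 and 8 held 4.25, 24.5 and 6.30 FPKM. KO replicate 1, the lowest of the KO libraries, lay just above WT replicate 1. For *Plin1* and for *Cidec* the exact permutation test, two-sided, gave p = 0.1.

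*Fabp4* (ENSMUSG00000062515, chromosome 3, 10204088 to 10208576, minus strand) encodes the adipocyte fatty acid carrier, which capillary endothelium and macrophages also make. In WT libraries 1, 7 and 8 *Fabp4* measured 409, 227 and 217 FPKM, against 258, 450 and 294 FPKM in KO libraries 1, 7 and 8. The genotypes overlapped (exact permutation test, two-sided, p = 0.5), and the highest library was 2.08 times the lowest, against 14.8 to 53.4 times for the other 6 white fat genes. The summed level of 8 endothelial markers was likewise narrow, at 65.2 to 91.0 FPKM in WT and 78.9 to 93.0 FPKM in KO libraries, and the part of endothelium in *Fabp4* was not tested. The order of the libraries was nevertheless close to that of *Adipoq*, with 14 of the 15 pairs of libraries ordered alike, as for *Lep*.

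The brown fat genes were near the floor of the measurement in 5 of the 6 libraries. *Ucp1* (ENSMUSG00000031710) lies on the plus strand of chromosome 8, from 83290352 to 83298452, and encodes the uncoupling protein that lets brown fat mitochondria release heat. WT libraries 1, 7 and 8 held 0.194, 0.196 and 0.155 FPKM of *Ucp1*, and KO libraries 1, 7 and 8 held 0.314, 4.25 and 0.0833 FPKM. These values correspond to about 122 fragments in KO replicate 7 and to about 2 to 7 in each of the others. KO replicate 8 was the lowest library and KO replicate 7 the highest, so the genotypes overlapped (exact permutation test, two-sided, p = 0.4). KO replicate 7 was 13.5 times the next highest library, the largest such ratio among the 74 genes that were over 2 times as high there as in the next library and above 0 in every library. *Ucp1* was among the genes tested only through that library, with a mean of 0.189 FPKM without it. Its rank is therefore a description and no support for a difference.

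*Cidea* (ENSMUSG00000024526, chromosome 18, 67343604 to 67367785, plus strand) encodes a droplet protein of brown and beige adipocytes related to that of *Cidec*. In WT libraries 1, 7 and 8 *Cidea* measured 0.238, 0.241 and 0.183 FPKM, against 0.463, 3.26 and 0.554 FPKM in KO libraries 1, 7 and 8. The genotypes did not overlap (exact permutation test, two-sided, p = 0.1), but only KO replicate 7, at about 60 fragments, stood clear of the 4 to 9 fragments of the others. Its ratio of 5.88 to the next highest library was second to that of *Ucp1* among the same 74 genes, and *Plin1* was the third. *Cidea* too was tested only through KO replicate 7, with a mean of 0.336 FPKM without it, so its rank is likewise a description.

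*Elovl3* (ENSMUSG00000038754, chromosome 19, 46131897 to 46135694, plus strand) encodes a fatty acid elongase that cold induces in brown fat. WT libraries 1 and 7 held 0.112 and 0.169 FPKM of *Elovl3*, which was listed at 0 in WT library 8, and KO libraries 1, 7 and 8 held 0.0387, 0.149 and 0.144 FPKM. No library exceeded about 5 fragments, and WT replicate 7 was the highest. With a mean of 0.102 FPKM it lay under the filter and was not tested by limma (exact permutation test, two-sided, p = 0.7). So 2 of the 3 brown fat genes stood clear in KO replicate 7 and the third was not detectable above the other libraries at this depth.

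**Figure D2:**
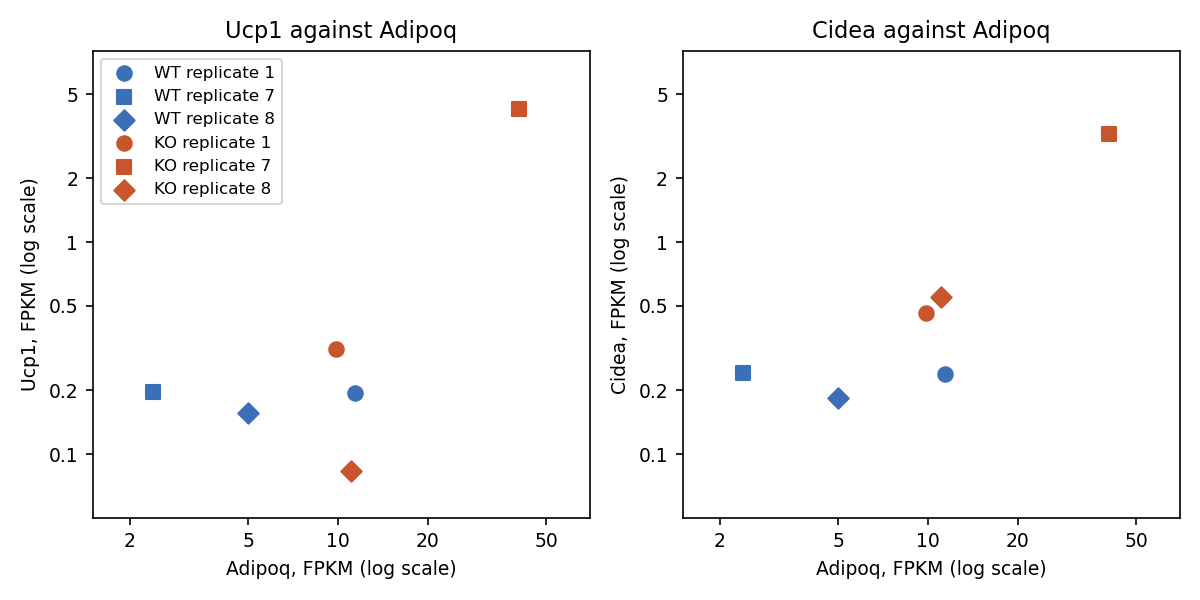
*Ucp1* and *Cidea* (FPKM, log axis) against *Adipoq* (FPKM, log axis) in each library. KO replicate 7 sits alone at 40.4 FPKM of *Adipoq* with 4.25 FPKM of *Ucp1* and 3.26 FPKM of *Cidea*, while the other 5 libraries lie below 0.6 FPKM for both brown fat genes.

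Set side by side within a library, the white fat genes outweighed the brown in all 6. Without *Fabp4*, the white fat genes summed to 35.1, 7.76 and 19.5 FPKM in WT replicates 1, 7 and 8, and to 46.3, 172 and 45.3 FPKM in KO replicates 1, 7 and 8. The 3 brown fat genes summed to 0.544, 0.606 and 0.338 FPKM in the WT and to 0.816, 7.65 and 0.781 FPKM in the KO libraries. WT replicate 7 held the least white and KO replicate 7 the most of both kinds. The brown sum was 1.55%, 7.80% and 1.74% of that white sum in WT replicates 1, 7 and 8, and 1.76%, 4.44% and 1.72% in KO replicates 1, 7 and 8. The 7.80% of WT replicate 7 stood over brown fat genes at about 5 to 6 fragments each and the lowest white sum. In KO replicate 7 the brown sum rested mostly on about 122 fragments of *Ucp1* and 60 of *Cidea*. The mean log2(FPKM + 0.1) of the brown fat genes lay below that of the 7 white fat genes by 2.59 (as a difference of -2.59) in WT replicate 7, and the difference ran from -4.53 to -4.11 in the other 5 libraries. On that scale KO replicate 7, at -4.11, was close to WT replicate 1, at -4.18.

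The white fat genes did not keep fixed proportions to one another, which was examined against *Adipoq*, chosen with the values known. *Lep* was 7.86% to 17.4% of *Adipoq* in WT and 9.02% to 15.4% in KO libraries, and the genotypes overlapped. *Cfd* was 156% to 213% of *Adipoq* in WT and 220% to 283% in KO libraries, *Plin1* 1.69% to 9.99% and 11.5% to 18.2%, and *Cidec* 29.8% to 42.5% and 43.1% to 60.6%. These 3 ratios did not overlap between the genotypes and were higher in KO, with *Plin1* at about 4 to 14 fragments in the WT libraries. *Fabp4* was 3594% to 9466% of *Adipoq* in WT and 1114% to 2655% in KO libraries, lower in KO without overlap. Each of these 4 ratios gave p = 0.1 in the exact permutation test, two-sided, and adjusted p = 0.225 over the 9 ratios compared. The ratios of *Retn*, *Ucp1*, *Cidea* and *Elovl3* overlapped. The share of all genes tested whose ratio to *Adipoq* does not overlap was not computed.

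The GC content of the transcripts moved with these ratios. It was 58.7% for *Cfd*, 57.9% for *Plin1* and 56.4% for *Cidec*, but 49.3% for *Adipoq* and 42.3% for *Fabp4*, and across all genes tested the log2 fold change between the genotypes rose with GC content (Spearman's rho 0.70, across genes, which are not independent replicates). After a correction for GC content, the log2 fold change of *Cfd* beyond that of *Adipoq* went from 0.46 to -0.14, that of *Cidec* from 0.59 to 0.14, and that of *Plin1* from 1.13 to 0.58. That of *Fabp4* went from -1.39 to -1.13. *Cidea*, at 55.6% GC, had a ratio that overlapped, and its log2 fold change beyond that of *Adipoq* went from 0.097 to -0.30. The part of GC content in these ratios was not tested.

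Between the genotypes, the means of all 9 tested fat genes were higher in KO than in WT libraries, but none passed the test. With limma on log2(FPKM + 0.1), 0 of the 9 had an adjusted p under 0.05, as against 0.324% of all genes tested. At an unadjusted p under 0.05, 6 of the 9 were higher in KO (15.3% of all genes tested) and 0 were lower (10.9% of all). The lowest KO library exceeded the highest WT library for 5 of the 9, *Retn*, *Cfd*, *Plin1*, *Cidec* and *Cidea*, as for 18.3% of all genes tested. However, *Retn*, *Plin1*, *Ucp1* and *Cidea* had a WT mean under 0.5 FPKM and were tested only because their KO levels were higher, so the counts over the 9 are no support for a difference. Of the 5 genes that reached 0.5 FPKM in WT alone, 3 were higher in KO at an unadjusted p under 0.05 and 2, *Cfd* and *Cidec*, did not overlap. The log2 fold changes had a median of 2.02 over the 7 white fat genes, beside 0.010 over all genes tested. For the brown fat genes the filter on low values set the median, which was 1.52 over *Ucp1* and *Cidea*, and 1.30 with a filter of 0.1 FPKM, where *Elovl3* was included. Fold changes on this scale understate the change of genes with low FPKM.

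*Plin1* had the largest log2 fold change, 2.79 with a standard error of 0.71 (limma, adjusted p = 0.0852). The values were 2.24 ± 0.73 (SE) for *Cidec*, 2.11 ± 0.64 for *Cfd* and 2.02 ± 0.54 for *Retn*, with adjusted p of 0.122, 0.107 and 0.0911. *Cidea* (1.75 ± 0.68, adjusted p = 0.165) and *Adipoq* (1.65 ± 0.67, adjusted p = 0.177) came next in size. *Lep* (1.50 ± 0.86, adjusted p = 0.298), *Ucp1* (1.30 ± 1.08, adjusted p = 0.464) and *Fabp4* (0.26 ± 0.29, adjusted p = 0.605) lay within 2 standard errors of 0. The standard errors of neighbours in this order overlapped, and the differences between genes were not tested. The order also changed with GC correction, after which *Cfd* was at 1.55, *Lep* at 1.55, *Cidea* at 1.38 and *Adipoq* at 1.69.

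Without KO replicate 7 the differences shrank. The log2 fold changes were then 1.96 for *Plin1*, 1.52 for *Cfd*, 1.50 for *Cidec*, 1.43 for *Retn*, 1.00 for *Adipoq*, 0.93 for *Cidea*, 0.72 for *Lep* and 0.019 for *Fabp4*. *Ucp1* turned to -0.029, with a mean in KO replicates 1 and 8 that was 1.09 times the WT mean in FPKM. The median over the 7 white fat genes was then 1.43. The WT libraries moved some of the values too. Without WT replicate 7, the log2 fold changes were 1.11 for *Adipoq*, 0.81 for *Lep*, 1.51 for *Cfd*, 1.64 for *Cidec* and 0.12 for *Fabp4*, while *Retn*, *Plin1*, *Ucp1* and *Cidea* were at 1.96, 2.51, 1.33 and 1.79. Without WT replicate 1, the WT library highest in *Adipoq*, *Adipoq* was at 2.21, *Lep* at 2.23, *Cfd* at 2.59, *Cidec* at 2.71 and *Fabp4* at 0.55, and *Retn*, *Plin1*, *Ucp1* and *Cidea* were at 1.85, 2.66, 1.33 and 1.79. With the libraries weighted by their quality as limma estimates it (array weights), 6 white fat genes passed at adjusted p of 0.0113 to 0.0437, *Fabp4* being the exception. That fit called 3147 of all 12334 genes tested. *Retn* and *Plin1*, among the 6, had a WT mean under 0.5 FPKM and were tested only because their KO levels were higher. The same fit lowered *Ucp1* to 0.28 (adjusted p = 0.808) and *Cidea* to 1.28 (adjusted p = 0.0726).

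**Figure D3:**
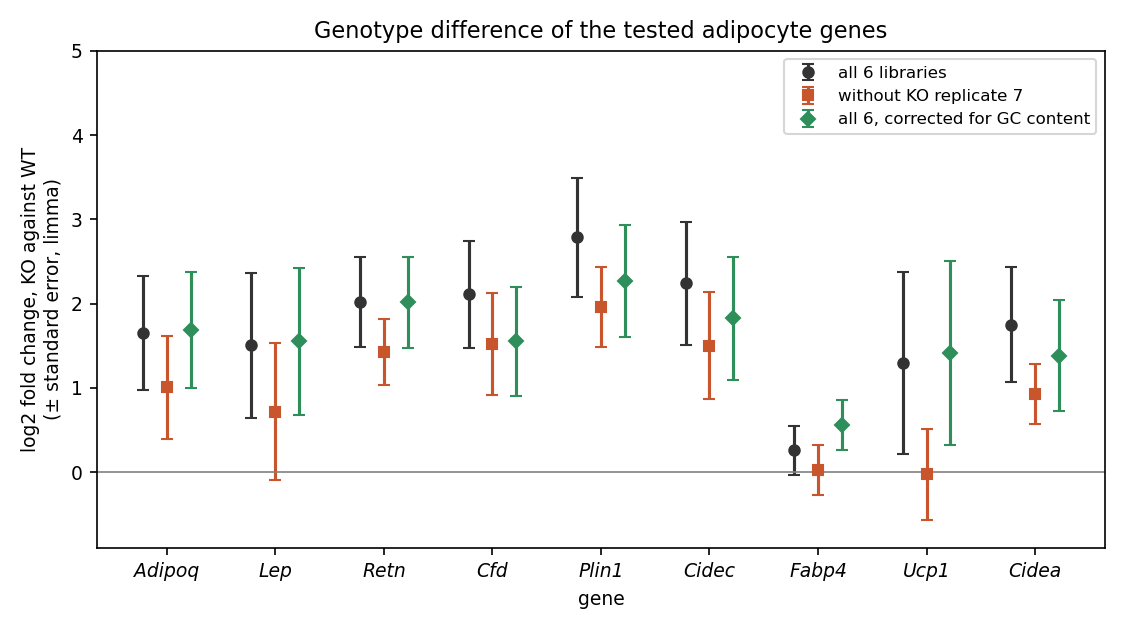
Log2 fold change of KO against WT (limma, bars are ± standard error) for the 9 tested fat genes, with all 6 libraries, without KO replicate 7, and corrected for GC content. Without KO replicate 7, *Ucp1* goes from 1.30 to -0.029 and *Plin1* from 2.79 to 1.96.

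Other genes of adipocytes followed the white fat genes in part. Of 25 further white or general adipocyte genes, 23 were tested and 0 passed in either direction, while 10 were higher and 0 lower in KO at an unadjusted p under 0.05 (15.3% and 10.9% of all genes tested). Their median log2 fold change was 1.01. *Lgals12*, among the 10 and named after its values were seen, had a WT mean under 0.5 FPKM. It was tested only because its KO levels were higher, so the count of 10 is no support for a difference. KO replicate 7 was the highest library for 18 of the 23 (21.4% of all genes tested) and exceeded the next over 2 times for 9 (0.697% of all). The 3 most abundant, which muscle fibers or stroma also express, showed less of this. *Gpd1*, glycerol-3-phosphate dehydrogenase, was at 97.0 to 163 FPKM in WT and 149 to 193 FPKM in KO libraries. *Lpl*, lipoprotein lipase, was at 44.6 to 121 FPKM in WT and 53.7 to 150 FPKM in KO libraries, and the glutathione transferase gene *Mgst1* at 81.2 to 98.1 and 69.3 to 101 FPKM. All 3 overlapped between the genotypes.

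Of the same list, *Scd1*, *Fasn*, *Pck1*, *Acly* and *Adrb3* were named after their values were seen. *Scd1* encodes stearoyl-CoA desaturase. WT libraries 1, 7 and 8 held 37.0, 9.16 and 22.5 FPKM of *Scd1*, and KO libraries 1, 7 and 8 held 31.3, 186 and 32.1 FPKM. *Fasn*, fatty acid synthase, measured 0.560, 0.651 and 1.87 FPKM in WT and 3.22, 14.4 and 2.86 FPKM in KO libraries, in the same order. *Pck1*, which feeds glycerol into triglyceride, measured 1.89, 0.233 and 0.594 FPKM in WT and 1.09, 15.2 and 3.31 FPKM in KO libraries, in the same order. KO replicate 7 was 4.47 to 5.04 times the next highest library for these 3 genes, of which *Fasn* did not overlap between the genotypes. *Acly*, ATP citrate lyase, another enzyme of fatty acid synthesis, differed less, at 3.82 to 5.27 FPKM in WT and 4.68 to 8.86 FPKM in KO libraries, with KO replicate 7 at 1.66 times the next. *Adrb3*, the β3-adrenergic receptor of adipocytes, was under the filter, at 0.333 FPKM in KO replicate 7 and at 0.0788 FPKM or less in the others.

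The 8 adipocyte transcription factors had a median log2 fold change of 0.62, with 0 passing in either direction, and 1 higher and 0 lower in KO at an unadjusted p under 0.05 (15.3% and 10.9% of all genes tested). The 3 most abundant, *Rxra*, *Srebf1* and *Klf15*, are also made by muscle, and KO replicate 7 was not the highest library for any of them. *Klf15*, with 3.79 to 5.52 FPKM in WT and 7.23 to 13.4 FPKM in KO libraries, did not overlap (limma, log2 fold change 1.07 ± 0.25 (SE), adjusted p = 0.0758). KO replicate 7 was the highest library for 4 of the 8 (21.4% of all genes tested) and exceeded the next over 2 times for 1 (0.697% of all). *Pparg* and *Cebpa*, named after their values were seen, were among the 4. *Pparg* was at 4.42 FPKM in KO replicate 7, against 1.02 to 2.23 FPKM in the other 5 libraries, and *Cebpa* at 5.03 FPKM, against 0.902 to 1.87 FPKM. *Cebpb*, also named after its values were seen, was highest in KO replicate 8, at 6.90 FPKM, against 5.79 FPKM in KO replicate 7.

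Of 16 further brown fat genes, 6 were tested and 0 passed in either direction, with 2 higher and 0 lower at an unadjusted p under 0.05 (15.3% and 10.9% of all genes tested) and a median log2 fold change of 0.26. The 2 were *Prdm16* and *Ppargc1b*, named after their values were seen, and neither overlapped between the genotypes. *Prdm16* was at 0.315 to 0.386 FPKM in WT and 0.627 to 0.797 FPKM in KO libraries. It was tested only because its KO levels were higher, so the count of 2 is no support for a difference. KO replicate 7 was the highest library for 5 of the 6 (21.4% of all genes tested) and exceeded the next over 2 times for 0 (0.697% of all). *Prdm16*, among the 5, reached the filter only through that library, so the count of 5 is no support for a difference either. The most abundant was *Fabp3*, the heart and muscle fatty acid carrier, at 85.2 to 215 FPKM in WT and 98.9 to 275 FPKM in KO libraries. *Nrg4*, a secreted factor of brown fat, was at 1.00 to 1.91 FPKM in WT and 0.956 to 2.52 FPKM in KO libraries, and *S100b* at 0.766 to 1.76 and 0.653 to 2.75 FPKM. Among the genes under the filter, named after their values were seen, the proton channel gene *Otop1* was at 0.349 FPKM in KO replicate 7, against 0.0453 to 0.131 FPKM in the others. The potassium channel gene *Kcnk3* was at 0.226 FPKM there, against 0.0133 to 0.0761 FPKM. *Zic1*, a factor of classical brown fat, was not set apart in that library, at 0.379 FPKM, against 0.0717 to 0.393 FPKM. *Dio2*, the deiodinase that brown fat uses to activate thyroid hormone, was at 0.356 FPKM in KO replicate 7 and at 0.307 to 0.499 FPKM in the others. *Lhx8* and *Bmp8b* were listed at 0 in all 6 libraries.

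Of 8 beige fat genes 4 were tested and 0 passed in either direction. At an unadjusted p under 0.05 there were also 0 in either direction (15.3% higher and 10.9% lower over all genes tested), which with 4 genes shows little. *Hoxc9* was at 2.17 to 2.52 FPKM in WT and 1.95 to 2.47 FPKM in KO libraries. *Slc36a2*, an amino acid transporter that brown fat shares, was at 3.28 FPKM in KO replicate 7, against 0.452 to 0.761 FPKM in the others, and *Ear2* at 1.27 against 0.408 to 0.708 FPKM. KO replicate 7 was the highest library for these 2 of the 4 tested (21.4% of all genes tested) and exceeded the next over 2 times for *Slc36a2* alone (0.697% of all). *Shox2*, named after its values were seen, was lower in KO without overlap. It was at 0.603 to 0.876 FPKM in WT and 0.375 to 0.538 FPKM in KO libraries. *Tmem26*, *Tnfrsf9*, *Tbx1* and *Cited1*, under the filter and also named after their values were seen, were highest in other libraries. Of 8 mitochondrial genes that brown fat shares with muscle 0 passed, while 4 were higher and 0 lower at an unadjusted p under 0.05 (15.3% and 10.9% of all genes tested), with a median log2 fold change of 0.26. *Cox8b*, *Cox7a1* and *Ckmt2*, the most abundant, were all highest in KO replicate 7, but by 1.04, 1.05 and 1.30 times the next library. *Ppargc1a*, a regulator of mitochondrial genes named after its values were seen, was at 5.57 FPKM there, against 5.72 to 6.63 FPKM in the others.

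**Figure D4:**
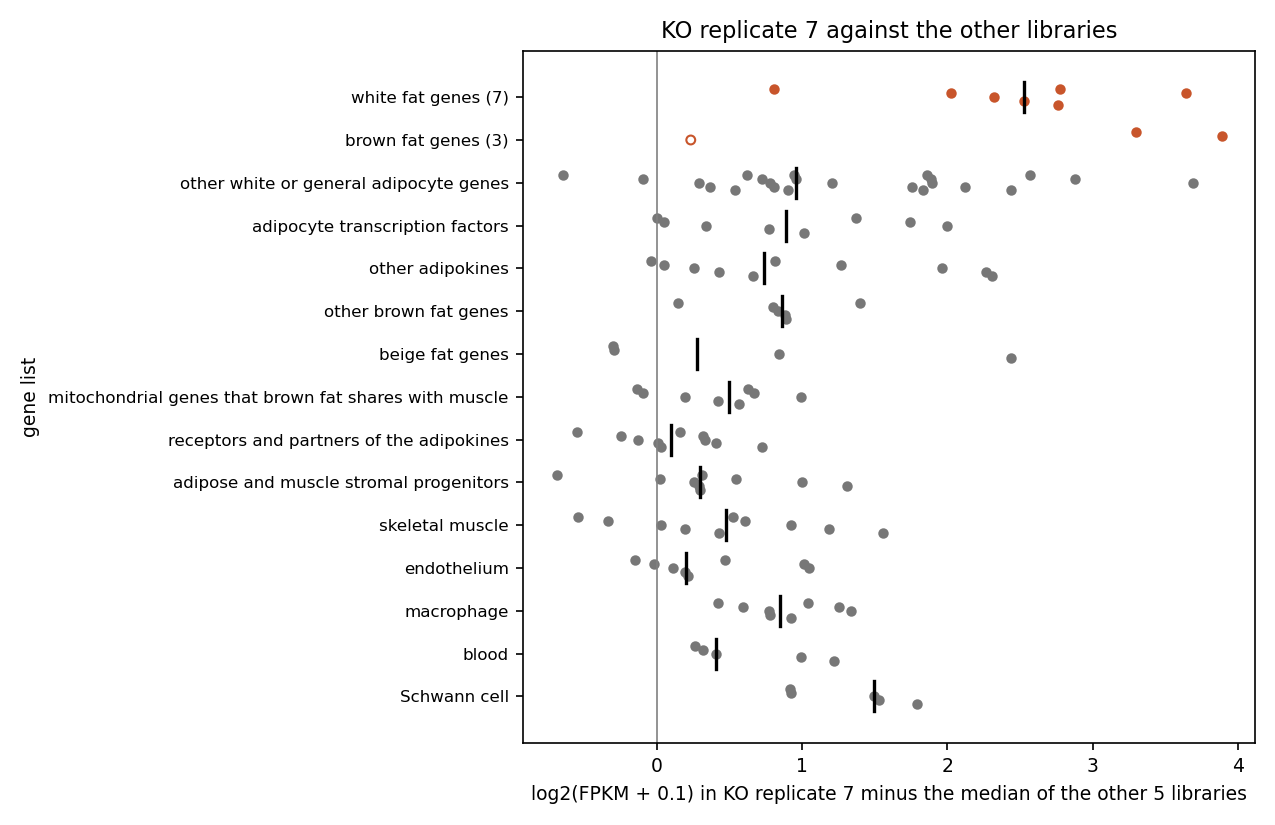
Log2(FPKM + 0.1) in KO replicate 7 minus the median of the other 5 libraries, for each tested gene of the fat lists and of the other cell type lists, with *Elovl3*, which was not tested, as an open symbol. Bars mark list medians, 2.53 for the white fat genes and 1.50 for the Schwann cell list, against -0.015 over all genes tested, and none is drawn for the brown fat genes, since *Ucp1* and *Cidea* were tested only through their level in KO replicate 7.

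Among 12 receptors and partners of the adipokines 10 were tested, with 0 passing in either direction and 1 in each direction at an unadjusted p under 0.05 (15.3% higher and 10.9% lower over all genes tested), and a median log2 fold change of 0.032. *Adipor1* and *Adipor2*, the adiponectin receptors, were at 88.0 to 106 and 37.3 to 45.5 FPKM in WT and at 82.7 to 103 and 38.2 to 41.8 FPKM in KO libraries. *Cdh13*, T-cadherin, which binds adiponectin at the cell surface, was at 28.7 to 30.5 FPKM in WT and 33.999 to 38.7 FPKM in KO libraries, without overlap (limma, log2 fold change 0.29 ± 0.10 (SE), adjusted p = 0.134). *Appl1*, an adaptor of the adiponectin receptors named after its values were seen, was at 8.04 to 8.47 FPKM in WT and 5.46 to 6.73 FPKM in KO libraries, lower in KO without overlap (limma, log2 fold change -0.42 ± 0.12 (SE), adjusted p = 0.0981). Of 12 other adipokines 10 were tested and 0 passed, with 1 higher and 0 lower at an unadjusted p under 0.05 (15.3% and 10.9% of all genes tested) and a median log2 fold change of 0.74. KO replicate 7 was the highest library for 6 of the 10 (21.4% of all genes tested) and exceeded the next over 2 times for 4 (0.697% of all). Those 4, named after their values were seen, were *Rbp4*, *Angptl4*, *Sfrp5* and *Ccdc80*. *Nampt* (24.2 to 31.3 FPKM in WT and 23.5 to 24.2 FPKM in KO libraries), *Rarres2* (13.1 to 17.0 and 15.5 to 27.6 FPKM) and *C1qtnf9* (6.30 to 9.71 and 7.52 to 10.3 FPKM) were the most abundant.

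Markers of macrophages and Schwann cells also had their highest sums in KO replicate 7, while those of stroma, muscle, blood, lymphocytes and epidermis did not. The 8 macrophage markers, none at 0 in any library, were all highest there (21.4% of all genes tested), at 1.04 to 1.84 times the next library. They summed to 67.2 FPKM there, against 20.5 to 42.7 FPKM in WT and 29.7 to 39.7 FPKM in the other KO libraries. The Schwann cell markers, 4 of 5 tested being highest there, summed to 136 FPKM, against 27.8 to 105 FPKM in WT and 32.1 to 56.6 FPKM in the other KO libraries. Of 10 stromal progenitor genes 9 were tested, 5 of them highest in KO replicate 7, with a sum of 151 FPKM there and 116 to 162 FPKM in the others. *Icam1*, among the 5 and named after its values were seen, reached the filter only through KO replicate 7, so that count is no support for a difference. The share of all genes tested that were highest in KO replicate 7 was 21.4%. Of the tested macrophage, Schwann cell and stromal genes, 0 were over 2 times the next library there (0.697% of all genes tested). The 10 skeletal muscle genes summed to 15352 to 22626 FPKM in WT and 27984 to 30548 FPKM in KO libraries, with KO replicate 7 at 30363. Blood markers summed to 242 to 314 FPKM in WT and 266 to 547 FPKM in KO libraries, with KO replicate 8 the highest. Lymphocyte and epidermis markers summed to at most 1.56 and 1.25 FPKM in any library. The part of these cell types in the fat gene results was not tested.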

How the data were processed

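Total RNA of GAS muscle was made into stranded mRNA libraries. The authors mapped reads to GRCm38 with TopHat and computed with Cufflinks the deposited FPKM values of 37979 genes. Versions and the annotation release are not given in the sources used here. Low FPKM values were whole multiples of 1 fragment, within a tolerance of 0.15, for 90.4% to 94.5% of values per library, and gave the depths. Such fragment numbers are approximate.

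Limma 3.58.1 in R 4.3.3, with a variance trend, was fitted to log2(FPKM + 0.1) of the 12334 genes whose mean over the libraries reached 0.5 FPKM, with p adjusted by Benjamini and Hochberg and a threshold of 0.05. Single genes were compared by exact permutation tests. Coordinates and GC content came from GENCODE vM21, and a loess curve (span 0.3) removed GC trends. The test was checked on simulated data. The fat genes and lists (159 genes, all in the table) were chosen with earlier results of these data known. Named genes are the 10 fat genes, *Kcnab2*, genes among the 3 most abundant of each list where none passed, and the genes most like the white fat genes or *Ucp1*. For any other gene the text says that its values were seen first. Alternatives covered pseudocount, filter, scaling, variance model, weights, replicate block, GC content and each library left out.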

Additional observations from a re-analysis of the deposited data

How the results depend on the processing

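Counts of called genes depended on the settings, and those of called fat genes on 1 of them. The 40 genes called became 11 with a pseudocount of 1 and 22, 20 and 18 with a filter of 0.1 FPKM, no filter and upper quartile scaling. They became 18 with quantile normalization, 19 without a variance trend, 14 with GC correction, 12 with GC correction and the replicate block, 14 with GC correction and KO replicate 7 left out (an alternative chosen after seeing the data), and 11 to 38 with each library left out. Array weights called 3147 of the 12334 genes tested and 6 of the 9 tested fat genes. The share of higher calls was 77.5%, against 61.1% with upper quartile scaling and 42.9% with GC correction. The replicate block called 13 genes and 0 fat genes, and so changed no call of a fat gene. Same-numbered libraries did not deviate together (correlations of -0.025, -0.08 and 0.034). The difference between brown and white mean log2 FPKM moved with a pseudocount of 1 to -2.75, -2.35, -2.88, -3.27 and -2.91 in WT 1, WT 8, KO 1, KO 7 and KO 8. With a pseudocount of 0.01 it moved to -5.63, -5.17 and -5.09 in WT 8, KO 1 and KO 8, and without the highest gene of each fat type to -3.17, -1.42, -3.84 and -3.26 in WT 1, WT 7, KO 1 and KO 8. Brown lay below white in every case. Without KO replicate 7, *Ucp1* reversed to -0.029 (limma, adjusted p = 0.984), and with each library left out it ran up to 2.26. The causes were not tested. Under a filter of 1 FPKM no brown fat gene was tested. With 3 libraries a group and brown fat genes at a few fragments in 5 libraries, small differences were not detectable.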

Other observations

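Over the 6 libraries, the 8 genes whose log2(FPKM + 0.1) ran closest to the mean of the standardised white fat genes were *H2-D1* (Pearson's r 0.993), *C1qtnf2* (0.992), *Itgb4*, *Igfbp6*, *Csrp2*, *Amotl2*, *Lrg1* and *Glis2* (0.983). *H2-D1* is a class I histocompatibility gene. In WT libraries 1, 7 and 8 *H2-D1* measured 25.04, 16.7 and 19.4 FPKM, against 24.2, 40.4 and 26.1 FPKM in KO libraries 1, 7 and 8. *Igfbp6*, which binds insulin-like growth factors, measured 10.7, 7.16 and 9.41 FPKM in WT and 13.9, 26.0 and 14.2 FPKM in KO libraries, in the same order. *Lrg1*, a secreted glycoprotein, measured 1.73, 0.813 and 1.16 FPKM in WT and 2.40, 5.54 and 2.70 FPKM in KO libraries, in the same order. KO replicate 7 was the highest and WT replicate 7 the lowest library for all 3, as for 5 of the 7 white fat genes. These correlations are descriptions over 6 points that share their libraries and depth, and KO replicate 7 lies far from the others.

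The 4 genes closest to *Ucp1* were *G6pdx* (r 0.996), *Rbm10* (0.993), *Sgpl1* (0.992) and 8430419L09Rik (0.987). *G6pdx*, glucose-6-phosphate dehydrogenase, which supplies NADPH for fatty acid synthesis, measured 1.76, 1.85 and 1.78 FPKM in WT and 1.89, 3.70 and 1.54 FPKM in KO libraries, in the same order. The other 3 differed by smaller folds, with *Rbm10* at 4.65 FPKM in KO replicate 7 and 3.50 to 3.74 FPKM elsewhere.

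Among the 74 genes over 2 times as high in KO replicate 7 as in the next library and above 0 in every library, some that are no fat markers ranked near the fat genes, and were named after their values were seen. The myofibrillar gene *Igfn1* was at 15.7 FPKM in KO replicate 7 and at most 3.12 FPKM elsewhere. *Acp5*, the tartrate-resistant acid phosphatase of osteoclasts and macrophages, was at 4.78 FPKM there and at most 0.936 FPKM elsewhere.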
